A study of Homo sapiens with 9 samples.

Results

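The genes described here are 9 genes of the red cell surface, its membrane skeleton and the receptors that erythroid precursors rely on: the glycophorins GYPB, GYPC and GYPE, the skeleton genes ANK1, SPTB, EPB41 and EPB42, and the receptor genes EPOR and TFRC. They were chosen by name with their levels and fold changes in these same libraries already known, so their values are given as a description and the counts of members past a threshold support nothing beyond themselves. Of the 9, 6 had a row among the 16612 genes of the deposited table (GYPC, GYPE, ANK1, EPB41, EPOR and TFRC), and GYPB, SPTB and EPB42 had none and were not analysed here. All 6 passed the filter on low counts, but GYPE and ANK1 passed it through the non-targeting libraries alone, so these 2 genes had to come out lower in the knockdown if they differed.

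The cells were HNT34, an established human acute myeloid leukemia line with a 3q26 rearrangement and high EVI1, a transcription factor made from the MECOM gene. All 9 libraries came from cells carrying a lentiviral shRNA vector with puromycin selection, and the study collected them 3 days after selection. The control group held 3 libraries with a non-targeting shRNA (NT), and the other groups held 3 libraries each with EVI1 shRNA #16 (sh#16) or EVI1 shRNA #87 (sh#87). One label field of the sh#87 libraries reads #18, whereas their titles and the design text read 87. Nothing states that the replicates were separate cultures, so the spread between them may be technical, and every value rests on 1 cell line.

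Total counts ran from 26966189 to 31268456 in NT, from 17096170 to 43502389 in sh#16 and from 18310242 to 22758610 in sh#87. Levels are given as CPM, a gene's counts scaled to a common library total corrected by edgeR's TMM factors, for which 3 counts, the limit that a count of 0 allows, correspond to between 0.0648 and 0.164 CPM depending on the library. Mitochondrially encoded genes took 15.9%, 11.5% and 4.69% of the counts in NT replicates 1, 2 and 3, against 2.69% to 2.88% in sh#16 and 4.62% to 5.97% in sh#87. The targeted gene, MECOM, averaged 505 ± 65.4 CPM in NT, 144 ± 1.43 CPM in sh#16 and 107 ± 1.72 CPM in sh#87 (SD, n = 3 each), and was lower in every knockdown library than in every NT library. These are bulk libraries, in which fewer cells of a type and less RNA per cell cannot be told apart.

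The red cell membrane is a lipid bilayer held to a net of spectrin. Ankyrin, encoded by ANK1, ties beta-spectrin (SPTB) to the anion exchanger with the help of protein 4.2 (EPB42), and protein 4.1 (EPB41) ties the spectrin and actin junctions to glycophorin C (GYPC). Glycophorins are sialic acid-rich proteins of the cell surface, and GYPE and GYPB are neighboring copies that arose by duplication. EPOR, the erythropoietin receptor, signals through the kinase JAK2 and the transcription factor STAT5 for survival of erythroid progenitors, and TFRC, the transferrin receptor, brings iron into all dividing cells and in greatest amount into erythroblasts.

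Both measured glycophorin genes were lower after EVI1 knockdown, and so was ANK1, whereas EPOR was higher, EPB41 was lower by less than the fold threshold and TFRC with sh#16 stayed within the range of NT. Calls follow the thresholds in the study's main text, a log2 fold change of at least 2 in size with an adjusted p of at most 0.01. A gene past both is termed a DEG (edgeR's quasi-likelihood test over 16312 genes, Benjamini-Hochberg adjustment). For the same data, a supplementary figure legend of the study gives an adjusted p of at most 0.05 instead. With both shRNAs against NT, 1 of the 6 members was a DEG with a higher level, where 9.74% of all genes tested were, and 3 were DEGs with a lower level, where 5.66% were. The corresponding counts were also 1 and 3 for sh#16, beside 7.95% and 4.84% of all genes, and 1 and 3 for sh#87, beside 11.7% and 7.14%. Counting the adjusted p alone, 1 member was higher and 4 were lower with both shRNAs, beside 30.1% and 29.7% of all genes. The median log2 fold change of the 6 members was -1.95 with both shRNAs against NT, and that of all genes tested was 0.05. Since the members were chosen with these comparisons known, nothing is read from these shares.

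**Figure D1:**
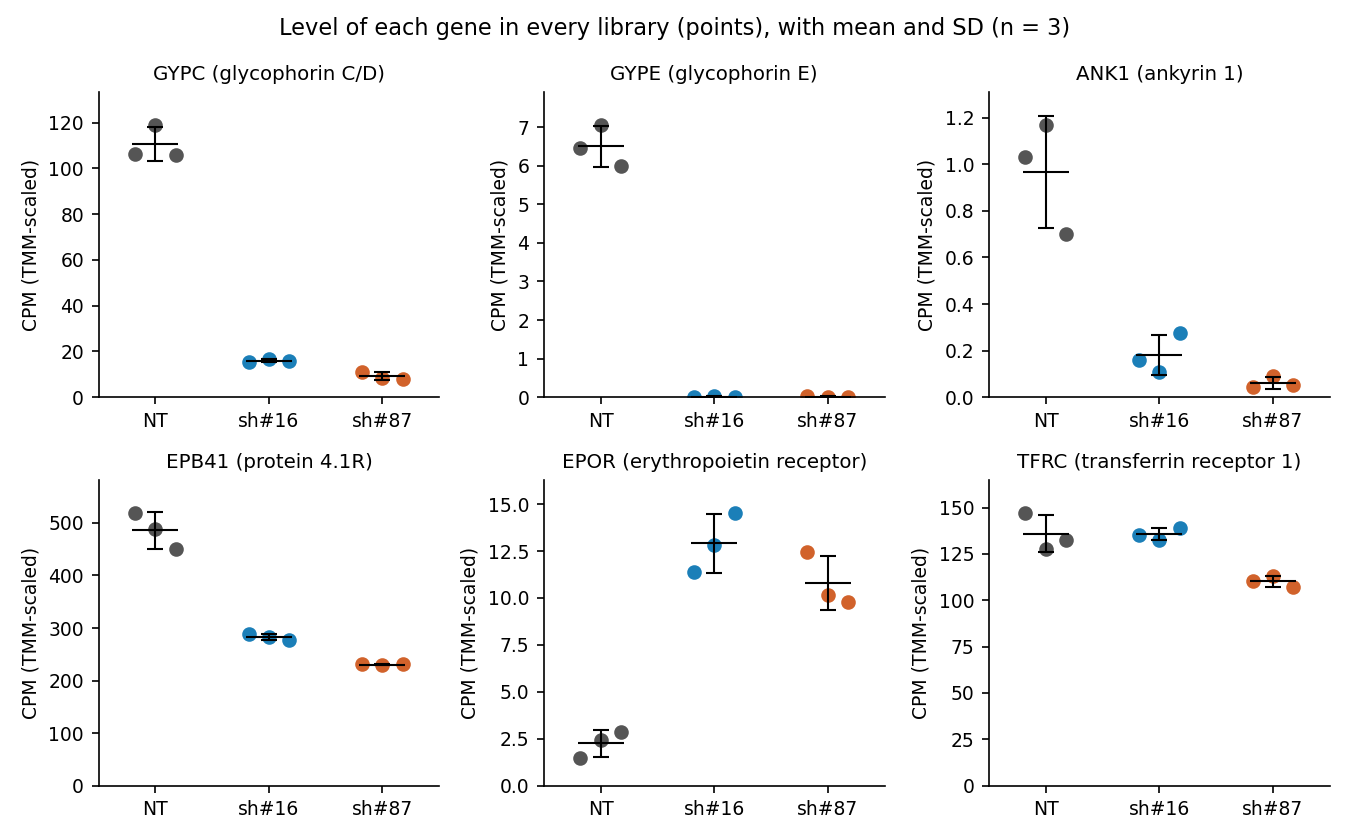
Level of each of the 6 measured members in CPM (vertical axes, starting at 0) in the 3 NT, 3 sh#16 and 3 sh#87 libraries, with 1 point per library and lines for the mean and SD of each group (n = 3). GYPC, GYPE, ANK1 and EPB41 sat lower in every knockdown library than in every NT library, EPOR sat higher in every one, and the TFRC values of NT and sh#16 overlapped.

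GYPC, whose product anchors the skeleton to the surface, lay far lower in the knockdown. It was measured at 106, 119 and 106 CPM in the NT libraries, at 15.5, 16.6 and 15.8 CPM in sh#16 and at 11.0, 8.49 and 7.73 CPM in sh#87. The 3 groups did not overlap, and the sh#87 libraries were the lowest. GYPC stood at 14.5% of its NT level with sh#16 (log2 fold change -2.79, SE 0.13) and at 8.24% with sh#87 (-3.60, SE 0.13). With 152 counts or more in each library, counting error was small beside these differences.

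GYPE, which lies near GYPB on the same chromosome, had its counts almost wholly in NT. Its 3 NT libraries held between 150 and 180 counts, or 6.45, 7.07 and 6.0 CPM, with a mean of 6.51 ± 0.53 CPM (SD, n = 3). Across the 6 knockdown libraries there were 2 counts in all, 1 in sh#16 replicate 2 and 1 in sh#87 replicate 1. A ratio of the pooled counts gives an NT level 578-fold that of sh#16 (exact 95% interval 103 to 22870) and 427-fold that of sh#87 (76.3 to 16901), intervals that cover counting error only. The fitted log2 fold changes of GYPE depend on the prior count and are no measure of the size of its difference. The 2 shRNA groups overlapped at this floor, and no difference between them was detectable at this depth.

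GYPE is a close copy of its neighbors, which bears on where its reads can be placed. In RefSeq (GRCh38.p14) GYPE lies at chr4:143870864-143905559 on the minus strand and GYPB at chr4:143995188-144019380 on the same strand. Of the 2003 distinct stretches of 31 bases in GYPE transcripts, 130 (6.49%) also occur in transcripts of another gene, mostly GYPB, but no stretch of 100 bases, the read length, does. The promoters of GYPE and GYPB share 239 of 244 aligned bases. GYPB had no row in the table, so its counts could not be set beside those of GYPE.

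The promoters of the glycophorin genes that were DEGs with a lower level, and of EPOR, the one member that was a DEG with a higher level, are printed as those of the DEGs among the members whose promoter was read. Each line gives the 250 bases before the gene's start (RefSeq, GRCh38.p14), 5′ to 3′ on the strand of the gene, with capitals marking AGATAA or AGATAG on either strand, the letters that GATA factors of erythroid cells are known to bind. The windows are chr2:126655908-126656157 on the plus strand for GYPC, chr4:143905560-143905809 on the minus strand for GYPE and chr19:11384315-11384564 on the minus strand for EPOR.
GYPC: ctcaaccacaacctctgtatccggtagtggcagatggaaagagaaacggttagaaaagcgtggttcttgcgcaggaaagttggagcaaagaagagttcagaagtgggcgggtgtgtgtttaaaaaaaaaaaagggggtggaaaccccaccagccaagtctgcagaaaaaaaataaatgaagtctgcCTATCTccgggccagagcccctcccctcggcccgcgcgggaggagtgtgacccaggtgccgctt
GYPE: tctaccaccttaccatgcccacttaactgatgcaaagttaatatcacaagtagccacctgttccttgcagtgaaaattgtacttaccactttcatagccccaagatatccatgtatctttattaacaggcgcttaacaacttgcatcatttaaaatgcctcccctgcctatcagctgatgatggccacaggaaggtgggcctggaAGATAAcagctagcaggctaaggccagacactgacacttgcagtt
EPOR: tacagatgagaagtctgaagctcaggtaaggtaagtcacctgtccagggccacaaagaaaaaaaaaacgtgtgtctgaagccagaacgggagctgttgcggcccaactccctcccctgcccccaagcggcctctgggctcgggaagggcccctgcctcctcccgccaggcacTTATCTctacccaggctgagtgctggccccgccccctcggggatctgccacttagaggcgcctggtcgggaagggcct
Each of the 3 promoters holds 1 such word, starting 64 bases before the start in GYPC, 45 in GYPE and 78 in EPOR, and it reads on the opposite strand in GYPC and EPOR. The genes with a word therefore include members that were lower and a member that was higher. The promoter of TFRC and both promoters of EPB41 hold none. Among all 35116 promoters of the same length, 13.9% hold a word, as do 7.94% of the 10373 first promoters of genes tested. A match of letters is a description of the sequence and not a binding site.

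EPB41 and ANK1, the measured skeleton genes, were both lower in the knockdown, from very different starting levels. EPB41 was measured at 519, 489 and 450 CPM in NT, at 288, 283 and 278 CPM in sh#16 and at 231, 229 and 232 CPM in sh#87. All knockdown libraries were below all NT libraries, and sh#87 was below sh#16 throughout. EPB41 kept 58.2% of its NT level with sh#16 (log2 fold change -0.78, SE 0.07) and 47.5% with sh#87 (-1.08, SE 0.07). The adjusted p passed in both comparisons, but the fold change stayed under the DEG threshold.

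ANK1 was scarce in every group. The NT libraries held 24, 27 and 21 counts, the sh#16 libraries 4, 5 and 5, and the sh#87 libraries 1, 2 and 1. Its level averaged 0.97 ± 0.24 CPM in NT, 0.18 ± 0.08 CPM in sh#16 and 0.06 ± 0.03 CPM in sh#87 (SD, n = 3 each), and the knockdown libraries were all below the NT libraries. The ratio of pooled counts put NT 6.03-fold above sh#16 (exact 95% interval 3.37 to 11.6) and 15.6-fold above sh#87 (5.83 to 58.8). ANK1 was a DEG with a lower level in both comparisons, with log2 fold changes of -2.53 (SE 0.37) and -3.88 (SE 0.46).

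EPOR ran the other way. It was measured at 1.46, 2.43 and 2.87 CPM in the NT libraries, at 11.4, 12.8 and 14.5 CPM in sh#16 and at 12.4, 10.1 and 9.76 CPM in sh#87. Every knockdown library was above every NT library, while the 2 shRNA groups overlapped. EPOR was 5.66-fold higher with sh#16 (log2 fold change 2.5, SE 0.22) and 4.74-fold higher with sh#87 (2.25, SE 0.22), and was a DEG in each. Among the NT libraries, the lowest EPOR level was in replicate 1 and the highest in replicate 3, which had the highest and the lowest share of mitochondrially encoded counts. The part of that share in the EPOR difference was not tested. The log2 fold change with both shRNAs was 2.38, and it was 2.14 without NT replicate 1 and 2.58 without NT replicate 3.

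TFRC moved least. It was measured at 147, 128 and 133 CPM in NT, at 135, 133 and 139 CPM in sh#16 and at 110, 113 and 107 CPM in sh#87. The sh#16 values lay within the NT range, and the sh#87 values were below all of them. The log2 fold change was 0.00 with sh#16 (SE 0.06, adjusted p = 0.984), and its sign turned with the scaling. With sh#87 TFRC stood at 81.3% of NT (-0.30, SE 0.07, adjusted p = 0.00224 by edgeR), and that difference missed an adjusted p of 0.01 with upper-quartile scaling, with only the 2 groups in the fit and without sh#87 replicate 3, where the adjusted p was 0.0425, 0.0144 and 0.0132.

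**Figure D2:**
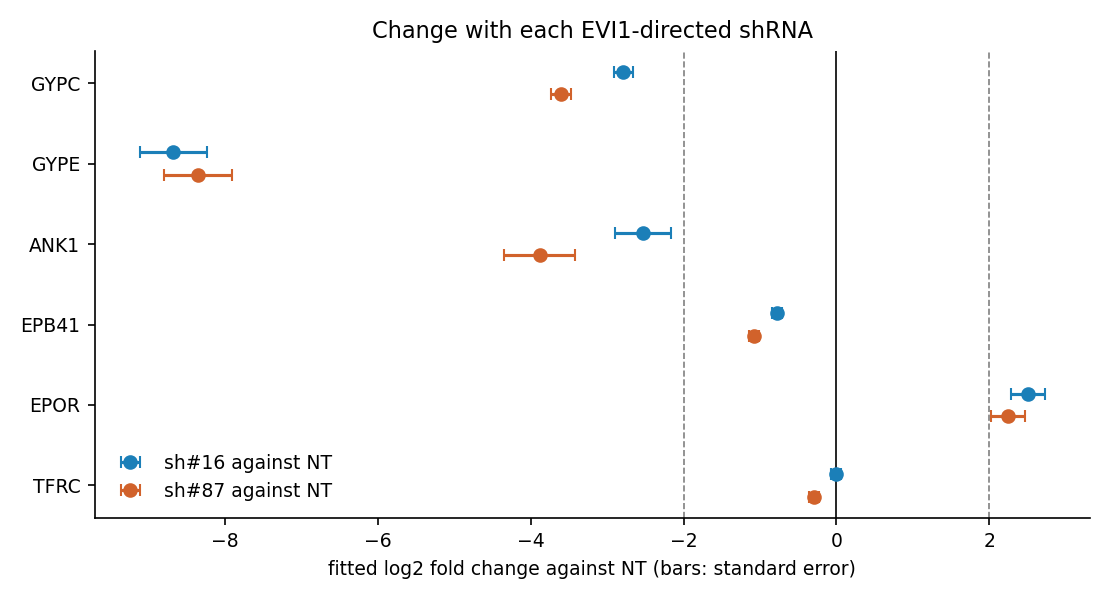
Log2 fold change of each measured member (horizontal axis) with its standard error for sh#16 and sh#87 against NT, with dashed lines at a log2 fold change of 2 in each direction. GYPC, GYPE, ANK1 and EPOR lie beyond the lines in both comparisons, although the position of GYPE depends on the prior count because its knockdown libraries hold 2 counts in all, EPB41 lies between 0 and the line and TFRC lies near 0.

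On a scale that allows genes to be set side by side, CPM per kilobase of the canonical transcript, GYPC led in NT with 108.6 ± 7.31 and EPB41 followed with 80.5 ± 5.71 (SD, n = 3 each). TFRC was at 27.1 ± 1.99, GYPE at 3.86 ± 0.32, EPOR at 0.93 ± 0.30 and ANK1 at 0.12 ± 0.03. The ranges over libraries of neighbors in this order did not overlap. In sh#87 the order by level began with EPB41 at 38.2 ± 0.22, followed by TFRC at 22.02 ± 0.58, GYPC at 8.92 ± 1.69 and EPOR at 4.47 ± 0.60. GYPC thus ranked first among the members in NT and below EPB41 and TFRC in both knockdown groups, where it was 15.7 ± 0.53 with sh#16, against 27.1 ± 0.62 for TFRC. This order rests on the canonical lengths used, 1018 bases for GYPC, 6031 for EPB41 and 5012 for TFRC. In CPM without the length, GYPC (mean 111) was below EPB41 (486) and TFRC (136) in NT as well.

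Setting the shRNAs against each other, GYPC, EPB41 and TFRC had lower levels with sh#87 than with sh#16. The log2 difference was -0.81 for GYPC (SE 0.13, adjusted p = 0.00174), -0.29 for EPB41 (SE 0.06, adjusted p = 0.00875) and -0.30 for TFRC (SE 0.06, adjusted p = 0.00834; edgeR). In this comparison 3 members passed with a lower level, where 9.42% of all genes did, while 8.29% of all genes passed with a higher level. ANK1 was lower in every sh#87 library too, but its difference of -1.35 (SE 0.61) had an adjusted p of 0.145. EPOR differed by -0.26 (SE 0.20, adjusted p = 0.352) and its groups overlapped. The EPB41 and TFRC differences passed in fewer than all settings tried: 11 of 19 alternatives gave EPB41, and 10 of 19 gave TFRC, an adjusted p above 0.01, with maxima of 0.0396 and 0.0401, and leaving out replicate 2 of either shRNA took GYPC past 0.01 as well (0.0105 for sh#16, 0.0114 for sh#87).

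Other genes of the red cell membrane were found on both sides, as genes of the whole table were. Of 30 listed genes, 19 were in the table, and with both shRNAs 5 passed the adjusted p with a higher level, 10 with a lower level and 4 did not pass, with a median log2 fold change of -0.43. The shares of all genes to set beside this and the following list counts are the 30.1% higher and 29.7% lower given above. RHAG, the Rh-associated glycoprotein, fell from 17.5 ± 1.48 CPM in NT to 0.84 ± 0.10 with sh#16 and 0.44 ± 0.03 with sh#87 (SD, n = 3 each, log2 fold change with both shRNAs -4.72, SE 0.24). CD36, a scavenger receptor found on erythroid progenitors, platelets and monocytes, fell by 4.11 on the log2 scale (SE 0.25). BCAM, the Lutheran glycoprotein that binds laminin, rose from 17.1 ± 4.2 CPM in NT to 114 ± 2.7 with sh#16 and 122 ± 9.07 with sh#87 (SD, n = 3 each, log2 fold change with both shRNAs 2.79, SE 0.15). The fourth DEG, RHCE, had at most 3 counts in any NT library, passed the filter through the knockdown libraries alone and shares most of its sequence with RHD, so its rise is uncertain.

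Relatives of the skeleton genes that serve other tissues were counted in the same way. Of 17 listed, 11 were in the table, and 6 passed with a higher level, 2 with a lower level and 3 did not pass, with a median log2 fold change of 0.75. TMOD2, a tropomodulin that caps actin filaments in neurons, rose from 0.72 ± 0.13 CPM in NT to 20.3 ± 0.81 with sh#16 and 18.3 ± 0.29 with sh#87 (SD, n = 3 each). SPTBN4, a neuronal beta-spectrin with at most 16 counts in an NT library, had a log2 fold change of 2.93 (SE 0.25), but it passed the low-count filter through the knockdown libraries alone and so had to come out higher if it differed. The widely expressed alpha-spectrin SPTAN1 rose by 0.75 on the log2 scale (SE 0.11), and its partner SPTBN1 fell by 0.61 (SE 0.11) from a level per kilobase of 170.9 ± 19.9 CPM in NT (SD, n = 3), above that of every member. EPB41L2, the closest relative of EPB41 measured here, had a log2 fold change of -0.12 (SE 0.14) and did not pass.

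Of 22 listed genes on the signaling path of EPOR, 21 were in the table, and 14 passed with a lower level, 1 with a higher level and 6 did not pass, beside 29.7% lower and 30.1% higher among all genes, with a median log2 fold change of -1.27. STAT5A, which carries the signal to the nucleus, fell from 354 ± 41.2 CPM in NT to 57.1 ± 1.21 with sh#16 and 38.6 ± 0.43 with sh#87 (SD, n = 3 each, log2 fold change with both shRNAs -2.89, SE 0.17). PTPN6, a phosphatase that switches the receptor off, fell from 215 ± 19.7 CPM to 61.7 ± 2.94 and 39.1 ± 1.53. With sh#16 PTPN6 stayed short of the DEG threshold (log2 fold change -1.80). STAT5A and PTPN6 were the DEGs of the list with both shRNAs, where 5.66% of all genes were DEGs with a lower level and 9.74% with a higher level. The number of DEGs in the list became 1 with upper-quartile scaling and with limma-voom weighted by group. It was 3 with 3 groups in the fit and without NT replicate 1 or NT replicate 3, and 4 without sh#16 replicate 2. A log2 fold change of at least 1 gave 11, and no fold threshold gave 15. JAK2, the kinase bound to the receptor, fell by 0.66 on the log2 scale (SE 0.10).

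Around TFRC, the 17 of 20 listed genes of transferrin uptake and iron handling that were measured split into 7 higher, 3 lower and 7 that did not pass, with a median log2 fold change of 0.03. TFR2, a second transferrin receptor that also associates with EPOR, was the DEG of this list (2 were called without NT replicate 3) and fell from 19.8 ± 4.12 CPM in NT to 4.28 ± 0.12 with sh#16 and 3.18 ± 0.52 with sh#87 (SD, n = 3 each, log2 fold change with both shRNAs -2.40, SE 0.18). Of 12 genes of heme synthesis, 11 were measured, 4 of them passed with a higher level and 3 with a lower level, and 4 did not pass. Both lists had medians close to the 0.05 of all genes.

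The labelled cell type is a myeloid leukemia line, and the defining markers of mature red cells were largely without a row in the table: the anion exchanger SLC4A1, the erythroid factor KLF1 and the heme enzyme ALAS2 had none, and of 11 globin genes and their chaperone only HBQ1 had one, at or below 1.37 CPM in every library. Of 20 erythroid transcription factor genes, 18 were measured, with 10 lower, 2 higher and 6 that did not pass. MYB and KLF3 were the DEGs, with log2 fold changes of -2.46 (SE 0.14) and -2.13 (SE 0.10). KLF3 stayed short of the DEG threshold with sh#16 (log2 fold change -1.99). The 2 higher genes were ZFPM1 (log2 fold change 1.02, SE 0.19) and E2F2 (1.02, SE 0.17). Taken singly, sh#16 gave 1 DEG with a lower level in this list and sh#87 gave 5, beside 4.84% and 7.14% of all genes. TAL1 fell by 1.27 on the log2 scale (SE 0.16), and GATA2 had a log2 fold change of -0.41 (SE 0.13) and did not pass. GATA1, the factor that drives erythroid maturation, held 7, 21 and 31 counts in NT, 22, 57 and 25 in sh#16 and 2, 4 and 2 in sh#87, and was a DEG with a lower level in sh#87 than in sh#16 (log2 difference -3.21, SE 0.53, adjusted p = 0.00236 by edgeR), having passed the filter through the sh#16 libraries alone.

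Markers of other lineages were counted beside the members. Of 15 megakaryocyte and platelet markers, 6 were measured, 5 passed with a lower level and 1 with a higher level, and their summed level was 504 to 766 CPM in NT, 120 to 127 in sh#16 and 62.0 to 66.4 in sh#87. GP6, FLI1 and VWF were among the DEGs with a lower level, GP6 having passed the filter through NT alone. FLI1 fell from 185 ± 22.6 CPM in NT to 17.2 ± 0.80 with sh#16 and 7.67 ± 0.61 with sh#87 (SD, n = 3 each). The higher one, ITGB3, was a DEG with both shRNAs (log2 fold change 2.20, SE 0.42), having passed the filter through the knockdown libraries alone. ITGB3 rose from 0.53 ± 0.11 CPM in NT to 3.28 ± 0.48 with sh#16 and 1.54 ± 0.37 with sh#87 (SD, n = 3 each). Of 10 stem and progenitor markers, 6 were measured, 4 of these passed with a lower level and 2 did not pass, and their summed level was 1065 to 1160 CPM in NT, 254 to 258 in sh#16 and 138 to 139 in sh#87. CD34 and MSI2 were the DEGs, with log2 fold changes of -3.20 (SE 0.38) and -2.76 (SE 0.08). The largest part of the summed level in NT was CD34, at 731 ± 55.3 CPM (SD, n = 3). FLT3, which did not pass with both shRNAs, moved oppositely with each. It was higher with sh#16 (log2 fold change 0.41, SE 0.09, adjusted p = 0.00217 by edgeR). With sh#87 FLT3 was lower (-0.52, SE 0.09, adjusted p = 0.000501 by edgeR). The 7 of 15 granulocyte and monocyte markers that were measured split into 2 higher, 2 lower, which were the DEGs CTSG and CSF1R, and 3 that did not pass, with summed levels of 67.7 to 75.1 CPM in NT, 106 to 111 in sh#16 and 73.6 to 78.0 in sh#87. CTSG passed the filter through NT alone, CSF1R stayed short of the DEG threshold with sh#16 (log2 fold change -1.68), and 1 DEG of this list was left with upper-quartile scaling, with limma-voom weighted by group, and without NT replicate 3, sh#87 replicate 1 or sh#87 replicate 2. The part of these lineages in the members' values was not tested.

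Across the 9 libraries, likeness to a member was measured as the root mean square difference of log2 levels after centering each gene, over all genes of at least 1 CPM on average. GYPC was most like PLCH1 (difference 0.12), whose mean went from 93.5 CPM in NT to 11.5 CPM in the knockdown libraries, and next like GBP4 (0.122) and LINC01132 (0.151). EPB41 was most like UBA2 (0.032), and TFRC was most like AGPS (0.036). EPOR was most like ANAPC11 (0.107), which went from 4.62 to 22.6 CPM. GYPE was most like IGHV3-30 (0.277), and ANK1 was most like RP11-572M11.4 (0.292), and both members have few counts in the knockdown.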

How the data were processed

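PolyA RNA of 9 HNT34 libraries (3 per group) was prepared with a stranded TruSeq kit and read as single reads of 100 bases. Per the study's methods, reads were checked with FastQC 1.3 and aligned with STAR to GRCh38, and genes were counted. The file header instead names salmon outputs, and the estimated counts per gene that the authors deposited are whole numbers, used as counts. Every gene in the table has at least 34 counts in all. CPM, fold changes and tests were computed here with R 4.3.3 and edgeR 4.0.16 (TMM, filterByExpr, quasi-likelihood test), adjusting over all 16312 genes tested. The 2-group fit joined both shRNAs, and the other 3 comparisons came from 1 fit of 3 groups. Alternatives used DESeq2 1.42.0, limma 3.58.1, other scalings, filters, thresholds, the replicate number as a block and each library left out. The script was tested on simulated data. The members and gene lists were chosen with earlier results of these data known. Named genes were all members, up to 4 DEGs a list by fold change among genes reaching 1 CPM, fixed erythroid genes and relatives, and the 3 genes most like each member. RHCE and HBQ1 were added after their values were seen, and some genes the rule names are not reported here. Transcript lengths came from GENCODE v44 on GRCh37. Deviations of same-numbered libraries correlated between -0.144 and 0.086 over 9 pairs, so no strong pairing by number was seen. Differently numbered libraries were not compared, so whether the numbers pair libraries cannot be decided from these values.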

Additional observations from a re-analysis of the deposited data

Results flagged for a closer look

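The levels of 3 members differed between the 2 shRNAs by a direct test of sh#87 against sh#16 (edgeR's quasi-likelihood test): GYPC by -0.81 (adjusted p = 0.00174), EPB41 by -0.29 (adjusted p = 0.00875) and TFRC by -0.30 (adjusted p = 0.00834) on the log2 scale. Each was lower in 3 of 3 sh#87 libraries than in all sh#16 libraries. Among all genes, 9.42% passed with a lower level in this comparison. Of 19 alternatives, 11 gave EPB41, 10 gave TFRC and 2 gave GYPC an adjusted p above 0.01. No library stood apart from the other 5 of the 6 knockdown libraries in any measured member.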

How the results depend on the processing

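The number of members called as DEGs was 4 in each comparison with NT under the alternatives run, except with a looser fold threshold (5 with both shRNAs and with sh#16, 5 and 6 with sh#87), and 0 in sh#87 against sh#16 by edgeR, DESeq2 and limma-voom, where 3 had an unadjusted p under 0.05 and 3 were called once no fold change was required. With the replicate number as a block the counts were also 4, 4, 4 and 0, while the adjusted p of EPB41 and TFRC in sh#87 against sh#16 became 0.0248 and 0.025. Leaving out each library in turn gave 4 in each comparison with NT and 0 between the shRNAs. The sign of the TFRC value with sh#16 against NT, near 0, turned with upper-quartile scaling (0.10), limma-voom (1.91e-05), no filter (0.0041), a filter of 10 mean counts (0.0055), the replicate block (1.31e-05) and only 2 groups in the fit (0.018), and ranged from -0.045 to 0.042 with 1 library left out. GYPE in sh#87 against sh#16 ranged from -1.72 to 1.93 with 1 library left out, on 2 counts in all. Upper-quartile scaling moved the median of all genes by 0.11 with both shRNAs against NT. Summing the counts of GYPE and GYPB gave no value of its own, since GYPE alone had a row. A fit with a weight per group was added after seeing the data. Depth limits what can be said of GYPE and ANK1 in the knockdown.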
